A study of Mus musculus with 24 samples.

Results

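Spn encodes CD43, a heavily sialylated mucin of the leukocyte surface, and was followed here together with 4 other genes of leukocyte adhesion, Selplg, Cd44, Icam1 and Vcam1. The 5 genes are among the 750 of the measured table and were found in it by symbol. Spn was picked because its values were lower in tumours grown from NP1867-treated cells, so its difference between NP1867 and DMSO tumours is given below as a description with no test. The other 4 were picked by name, to ask whether leukocyte adhesion genes moved with it.

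The tumours were grown under the skin of immunocompetent BALB/c mice from CT26 cells, an established colon carcinoma line of the same strain. Before implantation the cells had spent 40 weeks in culture with 0.5 uM NP1867, an inhibitor of the DNA mismatch repair protein PMS2, or with the solvent DMSO. Treatment groups were drawn at random on day 7, when tumours had reached about 50 mm3, and the mice received 4 doses of 5 mg/kg of the anti-PD-1 antibody RMP1-14 or of the isotype control antibody 2A3, both rat IgG2a. Tumours were taken on day 19, 24 hours after the last dose, and fixed in formalin. The 4 groups, with 6 tumours each, were NP1867 anti-PD-1, NP1867 isotype, DMSO anti-PD-1 and DMSO isotype. All mice thus carried cells kept in culture for the same time and received an antibody. The labels name no separate cultures within an arm, so a difference between NP1867 and DMSO tumours cannot be told apart from a difference between those cultures. Pms2 was not analysed here. The tumours sampled lay near the mean volume of their group, and the p-values cover the spread among such tumours.

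Leukocytes leave the blood in steps. Selectins and their mucin ligands let them roll along the vessel wall, and integrins then hold them firmly on immunoglobulin-family ligands such as ICAM-1 and VCAM-1. CD43 carries a large negative charge and is known both as a barrier to cell contact and as a ligand of E-selectin on T cells. PSGL-1, the product of Selplg, is the main P-selectin ligand of leukocytes. CD44 binds hyaluronan. ICAM-1 is the ligand of the integrin LFA-1 and is induced by interferon gamma and tumour necrosis factor, and VCAM-1 is the ligand of the integrin VLA-4.

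Values are deposited log2 values of the mouse PanCancer Immune Profiling panel (NanoString nCounter), which counts labelled molecules without amplification. Levels of different probes were not set against each other. The counts behind the values summed to between 62699 and 687032 per tumour, and 4 tumours, each of a DMSO group, had fewer than 200000. Of the carcinoma markers, 3 were in the table and were low in these tumours: Epcam was below the filter of a mean of log2 20, and Cdh1 and Muc1 averaged between 4.29 and 5.41 in every group. Of the 4 pan-leukocyte markers measured, the summed level ran from 9.92 to 11.33 in NP1867 anti-PD-1, 9.05 to 10.68 in NP1867 isotype, 9.64 to 10.61 in DMSO anti-PD-1 and 9.08 to 10.40 in DMSO isotype tumours. These ranges overlapped between NP1867 and DMSO tumours under each antibody, as those of most genes did. Of the 600 genes tested only 0.333% under isotype and 1.33% under anti-PD-1 did not overlap. The median log2 difference of the 4 markers was 0.15 under isotype (3 higher in NP1867 tumours) and 0.49 under anti-PD-1 (4 higher). Over all 600 genes it was 0.096 and 0.27. Of the 4 markers 0 were called, and whether leukocyte content was alike was not tested.

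The stretches just upstream of Spn and Icam1 are shown because Spn is the gene with the lower values and Icam1 a gene that was higher under anti-PD-1. Of the 5 genes, 3 (Spn, Cd44 and Icam1) were in the RefSeq promoter table of build GRCm38.p6. Each sequence below is the 250 bases before the annotated start of the gene, 5′ to 3′ on the strand of the gene, at chr7:127137824-127138073 (minus strand) for Spn and chr9:21015690-21015939 (plus strand) for Icam1. Capitals in Spn mark GGGTGG or its reverse complement, letters that the factor Sp1 is known to bind in the human CD43 promoter. Capitals in Icam1 mark GGAAATTCC, a form of the NF-kappaB motif, and TTCNNNGAA, the motif of STAT factors.
Spn: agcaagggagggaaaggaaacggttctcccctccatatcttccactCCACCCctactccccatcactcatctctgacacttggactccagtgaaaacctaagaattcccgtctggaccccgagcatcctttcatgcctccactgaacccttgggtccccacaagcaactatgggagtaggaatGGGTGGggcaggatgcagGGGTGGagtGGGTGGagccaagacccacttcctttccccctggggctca
Icam1: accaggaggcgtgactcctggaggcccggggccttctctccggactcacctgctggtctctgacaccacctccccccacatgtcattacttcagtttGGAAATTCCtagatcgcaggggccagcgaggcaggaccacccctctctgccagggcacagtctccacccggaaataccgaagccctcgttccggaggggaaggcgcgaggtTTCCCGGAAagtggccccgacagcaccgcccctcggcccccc
Both strands were searched. The Spn stretch held 4 copies of GGGTGG, of which 3 began 67, 49 and 40 bases before the start on the gene's strand and 1 lay on the other strand, 204 bases before it. At least 1 copy was present in 28.1% of 32851 such stretches of the table. The Icam1 stretch held 1 GGAAATTCC, 153 bases before the start (0.286% of stretches), and 1 TTCNNNGAA, 42 bases before it (7.02% of stretches). It also held 2 copies of GGGTGG, not capitalised, and none of the capitalised motifs overlapped another. The Cd44 stretch held none of the 3 motifs. A match describes letters only, and no binding was measured.

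Spn was lowest in NP1867 isotype tumours and highest in DMSO tumours. It averaged 8.34 ± 0.14 in NP1867 anti-PD-1, 8.001 ± 0.15 in NP1867 isotype, 8.67 ± 0.11 in DMSO anti-PD-1 and 8.61 ± 0.13 in DMSO isotype tumours (SD, n = 6 each). The lowest, median and highest values were 8.20, 8.28 and 8.54 in NP1867 anti-PD-1, 7.85, 7.99 and 8.24 in NP1867 isotype, 8.52, 8.65 and 8.85 in DMSO anti-PD-1, and 8.35, 8.66 and 8.73 in DMSO isotype tumours. Under isotype the NP1867 and DMSO tumours did not overlap. Under anti-PD-1 they overlapped by 1 pair of tumours, NP1867 tumour 45 at 8.54 and DMSO tumour 74 at 8.52. The counts behind these values ran from 74 to 730 per tumour.

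**Figure D1:**
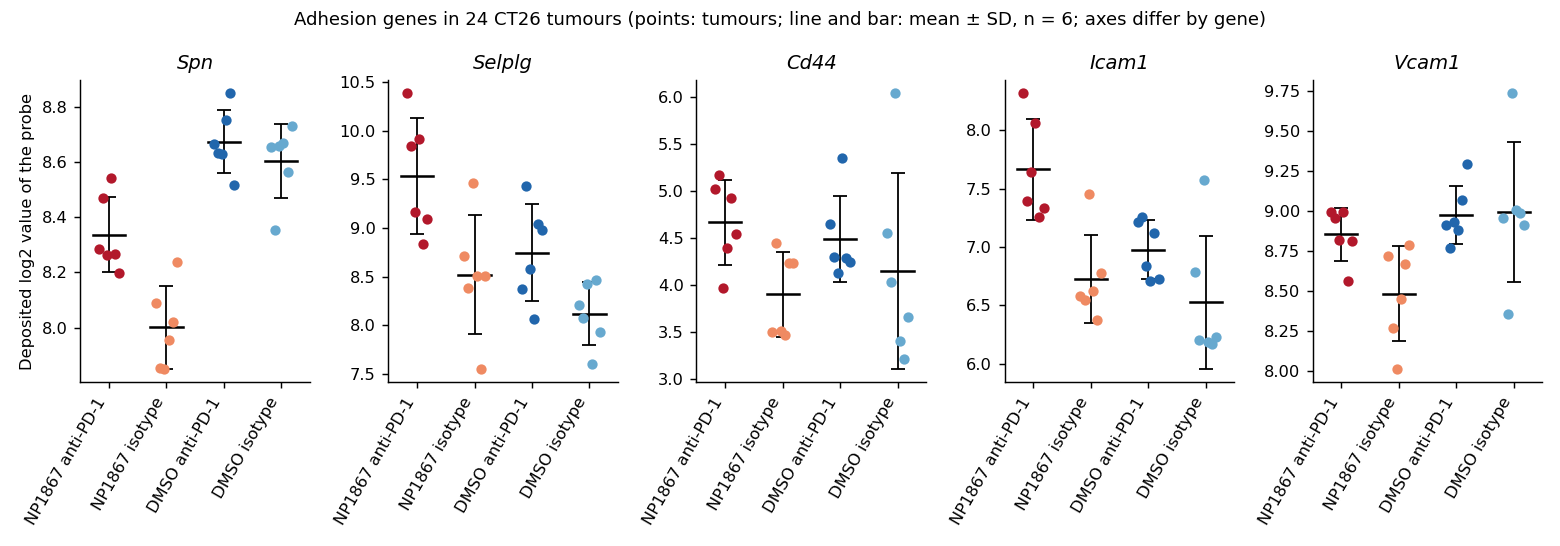
Deposited log2 values of Spn, Selplg, Cd44, Icam1 and Vcam1 (vertical axes, on a different range for each gene) in the 4 groups of 6 tumours (horizontal axis); points are tumours, lines and bars the mean ± SD. The NP1867 isotype tumours of Spn sit between 7.85 and 8.24, below all DMSO isotype tumours (8.35 to 8.73), while Selplg and Icam1 are highest in NP1867 anti-PD-1 tumours.

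The difference of Spn between NP1867 and DMSO tumours was -0.60 on the log2 scale under isotype (0.66-fold), -0.34 under anti-PD-1 (0.79-fold) and -0.47 averaged over both antibodies. All 12 NP1867 tumours lay below the mean of the DMSO tumours given the same antibody. Among the 600 genes tested, limma called 0.167% in this comparison under isotype, which was 1 gene, Spn itself, and 0.333% had groups that did not overlap. Under anti-PD-1, 1.33% had groups that did not overlap. Since Spn was chosen on this contrast, nothing is read from either. In size, 16 of the 600 genes had a lower log2 difference under isotype than Spn. In a bulk tumour, fewer cells of a type and less RNA per cell cannot be told apart. With the pan-leukocyte gene Ptprc (CD45) as a covariate, the Spn differences were -0.60 under isotype, -0.32 under anti-PD-1 and -0.46 averaged. Within groups Spn followed Ptprc little (r = -0.17), so this covariate could hardly move it, and the part of cell content was not tested. Relative to Ptprc in the same tumour, the log2 value of Spn averaged -1.06 ± 0.47 in NP1867 anti-PD-1, -0.85 ± 0.77 in NP1867 isotype, -0.37 ± 0.45 in DMSO anti-PD-1 and -0.13 ± 0.45 in DMSO isotype tumours (SD, n = 6 each). These relative values also carry the differences of Ptprc itself.

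Spn varied little among tumours of a group. Its SD within groups was 0.134, the 5th lowest of the 600 genes, whose median was 0.492. The choice of Spn rested on a difference large against this SD, so the small spread is not independent of the choice. The SD within groups was 0.521 for Selplg, 0.422 for Icam1 and 0.293 for Vcam1.

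Selplg did not share the lower values of Spn. It averaged 9.54 ± 0.60 in NP1867 anti-PD-1, 8.52 ± 0.61 in NP1867 isotype, 8.75 ± 0.50 in DMSO anti-PD-1 and 8.12 ± 0.32 in DMSO isotype tumours (SD, n = 6 each). The lowest, median and highest values were 8.83, 9.50 and 10.38 in NP1867 anti-PD-1, 7.55, 8.51 and 9.46 in NP1867 isotype, 8.07, 8.78 and 9.43 in DMSO anti-PD-1, and 7.60, 8.14 and 8.46 in DMSO isotype tumours. The NP1867 and DMSO tumours overlapped under both antibodies. The log2 difference between NP1867 and DMSO tumours was 0.40 under isotype (SE 0.29, limma adjusted p = 0.692), 0.79 under anti-PD-1 (SE 0.29, adjusted p = 0.260) and 0.60 averaged over both antibodies (SE 0.20, 95% interval 0.18 to 1.01, adjusted p = 0.128). None passed, although the averaged value did without NP1867 isotype tumour 57 (0.69, limma adjusted p = 0.0491) or with array weights, which weight each tumour by its precision (0.47, adjusted p = 0.0440).

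Icam1 stood on the same side as Selplg. It averaged 7.67 ± 0.43 in NP1867 anti-PD-1, 6.73 ± 0.38 in NP1867 isotype, 6.98 ± 0.25 in DMSO anti-PD-1 and 6.53 ± 0.57 in DMSO isotype tumours (SD, n = 6 each). Under anti-PD-1 the NP1867 tumours ran from 7.25 through a median of 7.52 to 8.31, and the DMSO tumours from 6.71 through 6.98 to 7.26, so that 1 NP1867 tumour fell below the highest DMSO tumour. Under isotype the NP1867 tumours ran from 6.37 through 6.61 to 7.45 and the DMSO tumours from 6.17 through 6.22 to 7.58, with full overlap. The log2 difference between NP1867 and DMSO tumours was 0.20 under isotype (SE 0.24, limma adjusted p = 0.792), 0.69 under anti-PD-1 (SE 0.24, adjusted p = 0.248) and 0.44 averaged (SE 0.17, adjusted p = 0.166). The value under isotype turned to -0.014 after quantile normalisation. The averaged value passed without DMSO isotype tumour 23, which had the fewest counts (0.55, limma adjusted p = 0.0272), and with array weights (0.46, adjusted p = 0.0120).

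Vcam1 had lower values in NP1867 tumours, as Spn had, but the difference did not pass the test. It averaged 8.85 ± 0.17 in NP1867 anti-PD-1, 8.48 ± 0.30 in NP1867 isotype, 8.97 ± 0.18 in DMSO anti-PD-1 and 8.99 ± 0.44 in DMSO isotype tumours (SD, n = 6 each). Under isotype the NP1867 tumours ran from 8.01 through 8.56 to 8.78 and the DMSO tumours from 8.35 through 8.97 to 9.73. All 6 NP1867 isotype tumours lay below the DMSO isotype mean, yet the groups overlapped through DMSO tumour 6 at 8.35, 1 of the tumours with few counts. Under anti-PD-1 the NP1867 tumours ran from 8.56 through 8.89 to 8.99 and the DMSO tumours from 8.77 through 8.92 to 9.29. The log2 difference between NP1867 and DMSO tumours was -0.51 under isotype (SE 0.17, limma adjusted p = 0.393), -0.12 under anti-PD-1 (SE 0.17, adjusted p = 0.719) and -0.31 averaged (SE 0.12, 95% interval -0.57 to -0.06, adjusted p = 0.166). With array weights the averaged value was -0.28 and passed (limma adjusted p = 0.0269).

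Cd44 was too low to be tested. Its mean over all tumours, 4.30, lay just under the filter of log2 20, and its counts ran from 4 to 34 per tumour. It averaged 4.67 ± 0.45 in NP1867 anti-PD-1, 3.90 ± 0.45 in NP1867 isotype, 4.49 ± 0.46 in DMSO anti-PD-1 and 4.15 ± 1.04 in DMSO isotype tumours (SD, n = 6 each). The highest value, 6.03 in DMSO isotype tumour 23, stood for 12 counts. In the fit without a filter the averaged NP1867 difference was -0.037 (limma adjusted p = 0.958). CD44 is known to be made as many splice forms, and which of them the probe detects is not given in the sources used here.

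**Figure D2:**
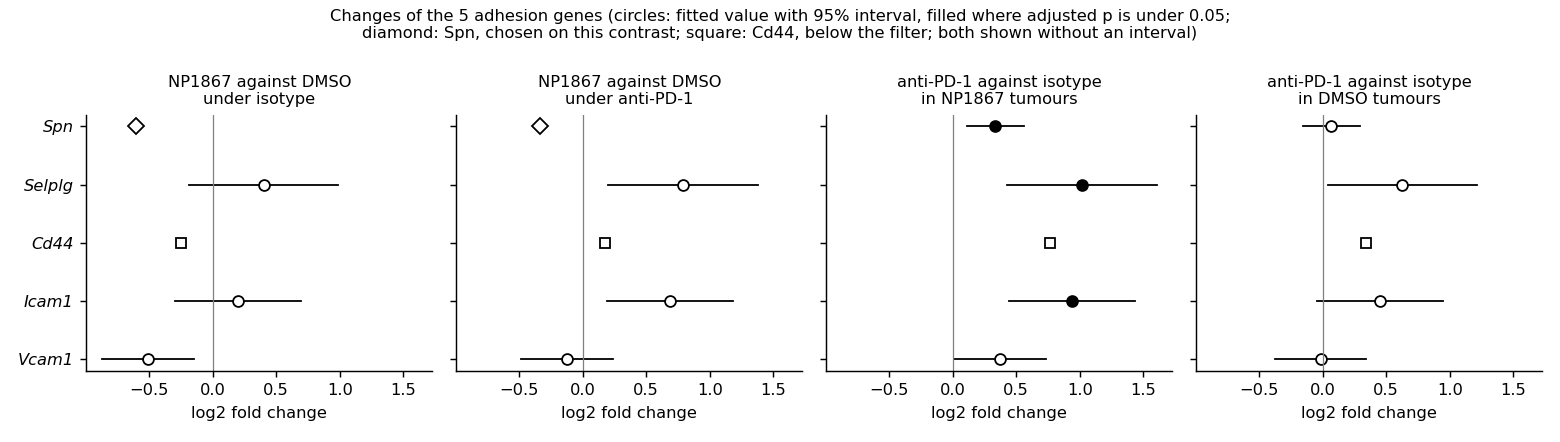
Log2 fold changes of the 5 genes (horizontal axis) in 4 comparisons; circles are fitted values with 95% intervals, filled where the limma adjusted p was under 0.05, the diamond is Spn in the contrasts that chose it and the square is Cd44. Spn and Vcam1 lie left of 0 in the comparison under isotype (-0.60 and -0.51) and Selplg and Icam1 right of it (0.40 and 0.20). The circles of Spn under anti-PD-1, filled in NP1867 tumours and open in DMSO tumours, rest on tumours that chose Spn. They are no independent test.

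Among the other genes of a wider adhesion list, 0 passed the limma test between NP1867 and DMSO tumours under either antibody or averaged. The list named 48 genes in 5 groups by role, of which 35 were in the table and 29 were above the filter, Spn and 28 others. An unadjusted limma p under 0.05 was reached by 4 of the 28 under isotype, 4 under anti-PD-1 and 11 averaged over both antibodies. Of all 600 genes 7.67%, 11.5% and 20.2% reached it, a smaller share than among the 28 in each comparison. Whether the shares differ was not tested. Over all 600 genes limma called 0% under anti-PD-1, where 69 had an unadjusted p under 0.05, and 2% averaged over both antibodies, 7 genes (1.17%) higher and 5 (0.833%) lower, Spn among the 5. The median log2 difference averaged over both antibodies was 0.16 over the 28 adhesion genes and 0.18 over all 600 genes. The largest negative values after Spn, chosen after seeing them, were those of Sele (E-selectin of activated endothelium, -0.47, SE 0.20, limma adjusted p = 0.187), Cd99 (a junctional protein of leukocytes and endothelium, -0.39, SE 0.17, adjusted p = 0.193) and Itga6 (an integrin chain of laminin receptors, -0.39, SE 0.12, adjusted p = 0.103). The largest positive values were those of Thy1 (0.72, SE 0.23, limma adjusted p = 0.106) and Pecam1 (CD31 of the endothelial junction, 0.71, SE 0.25, adjusted p = 0.128). Of the 7 endothelial markers tested, 0 passed in the averaged comparison, and their median was 0.35. Without the 4 tumours of fewer than 200000 counts, 1 of the 28 was called, lower in NP1867 tumours, and with array weights 7 were, 4 higher and 3 lower.

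Anti-PD-1 raised Icam1 and Selplg. In NP1867 tumours Icam1 rose 1.92-fold (log2 fold change 0.94, SE 0.24, limma adjusted p = 0.0154), with 6 of 6 anti-PD-1 tumours above the isotype mean. Selplg rose 2.02-fold (1.02, SE 0.29, limma adjusted p = 0.0242), also in 6 of 6 tumours. Neither gene separated the groups fully, since NP1867 isotype tumour 47, at 7.45 for Icam1 and 9.46 for Selplg, lay inside the range of the anti-PD-1 tumours. In this comparison 12.3% of the 600 genes were called, 72 (12%) higher and 2 (0.333%) lower, and 4.17% had groups that did not overlap. In DMSO tumours the log2 change was 0.45 for Icam1 (SE 0.24, limma adjusted p = 0.370, 6 of 6) and 0.63 for Selplg (SE 0.29, adjusted p = 0.318, 5 of 6). There 0% of the 600 genes were called, with 85 at an unadjusted p under 0.05. Averaged over both cultures, where 29.3% were called, 162 (27%) higher and 14 (2.33%) lower, Icam1 rose by 0.70 (SE 0.17, limma adjusted p = 0.00762, 12 of 12) and Selplg by 0.82 (SE 0.20, adjusted p = 0.00768, 11 of 12).

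The median of all 600 genes was itself higher under anti-PD-1, by 0.43 in NP1867 tumours and 0.33 averaged over both cultures, and after each tumour was centred on its own median the calls split differently. In NP1867 tumours centring gave 38 genes higher and 40 lower, and quantile normalisation 23 higher and 32 lower. Icam1 (0.60, limma adjusted p = 0.0474) and Selplg (0.68, adjusted p = 0.0370) still rose in NP1867 tumours after centring. After quantile normalisation Selplg did (0.75, adjusted p = 0.0319) and Icam1 did not pass (0.55, adjusted p = 0.0739). With Ptprc as a covariate neither passed: Icam1 was at 0.67 (limma adjusted p = 0.0778) and Selplg at 0.55 (adjusted p = 0.0785).

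For Spn the deposited values gave a log2 change of 0.34 under anti-PD-1 in NP1867 tumours (SE 0.11, limma adjusted p = 0.0470, 6 of 6 tumours), but it was -0.0050 after centring, 0.072 after quantile normalisation and -0.061 in limma-voom on the recovered counts scaled by library totals. On the deposited scale 267 of the 600 genes had a lower change than Spn, and after quantile normalisation 343 had. The NP1867 isotype tumours of this comparison are also those that chose Spn for its low values. A rise from them is favoured by that choice, so the adjusted p is no independent test and nothing is read from it. The tumours of the 2 antibodies overlapped by NP1867 anti-PD-1 tumour 67 at 8.20 and NP1867 isotype tumour 74 at 8.24. In DMSO tumours the change of Spn was 0.069 (SE 0.11, limma adjusted p = 0.717), and -0.18 after centring. The DMSO isotype tumours also took part in the choice of Spn, so this adjusted p is no independent test either.

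Vcam1 changed by 0.37 under anti-PD-1 in NP1867 tumours (SE 0.17, limma adjusted p = 0.131, 6 of 6 tumours) and by -0.016 in DMSO tumours (SE 0.17, limma adjusted p = 0.964, with 2 of 6 over the mean of the isotype tumours). After centring these values were 0.030 and -0.26. Cd44, in the fit without a filter, changed by 0.77 in NP1867 tumours (SE 0.38, limma adjusted p = 0.146) and by 0.34 in DMSO tumours (SE 0.38, adjusted p = 0.688). The responses of the 2 cultures were compared directly as well. The response in NP1867 tumours minus that in DMSO tumours was 0.39 for Selplg (SE 0.40), 0.49 for Icam1 (SE 0.34) and 0.39 for Vcam1 (SE 0.25), each with a limma adjusted p of 0.995. For Spn, which was chosen on these tumours, it was 0.27 and is given without a test. Of the 600 genes 0% were called in this comparison, with 11 (1.83%) at an unadjusted p under 0.05, so the responses of the 2 cultures were not shown to differ.

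Under anti-PD-1 both chains of LFA-1 rose beside Icam1 and Selplg. In NP1867 tumours 4 of the 28 adhesion genes besides Spn rose (14.3%) and 0 fell, against 12% of all 600 genes higher: Icam1, Selplg and the 2 chains of LFA-1, Itgb2 (1.01, SE 0.27, limma adjusted p = 0.0184) and Itgal (0.95, SE 0.26, adjusted p = 0.0221). The share is near that of all genes. By group, 2 of 10 integrin chains and 1 of 11 immunoglobulin-family and junctional ligands rose. LFA-1 is the receptor of ICAM-1. Averaged over both cultures 9 of the 28 rose (32.1%) and 0 fell, against 27% of all 600 genes higher, again a like share. Beside Icam1, Selplg, Itgb2 (0.85) and Itgal (0.63) those described here were Itgae, the integrin chain of tissue-resident T cells (0.70), Cd6, a T cell receptor for Alcam (0.87), Thy1 (0.68) and Cd47, which signals to phagocytes (0.37), with limma adjusted p from 0.00371 to 0.0382. Of the 7 endothelial markers 2 rose in the averaged comparison, against the same 27% of all genes: Vwf, von Willebrand factor (0.93, limma adjusted p = 0.0353), and Eng, endoglin (0.63, adjusted p = 0.0302). Vwf averaged 3.93 in DMSO isotype tumours, at counts of 5 to 28, and 4.53 in NP1867 isotype tumours. Cd6 averaged 4.19 in NP1867 isotype tumours, at counts of 8 to 27, and 4.36 in DMSO isotype tumours. The lower mean of each gene lay under the filter. The filter used the mean over all tumours, which the higher anti-PD-1 values of Vwf and Cd6 raised. In the averaged comparison the values of Pecam1 (0.041) and of Cdh5, VE-cadherin (0.025), did not pass. The median log2 change in that comparison was 0.31 over the 28 adhesion genes and 0.33 over all 600 genes. After centring, 4 of the 28 were higher and 5 lower, and after quantile normalisation 4 were higher and 6 lower. In NP1867 tumours the same counts were 3 higher and 4 lower after centring, and 1 higher and 3 lower after quantile normalisation.

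**Figure D3:**
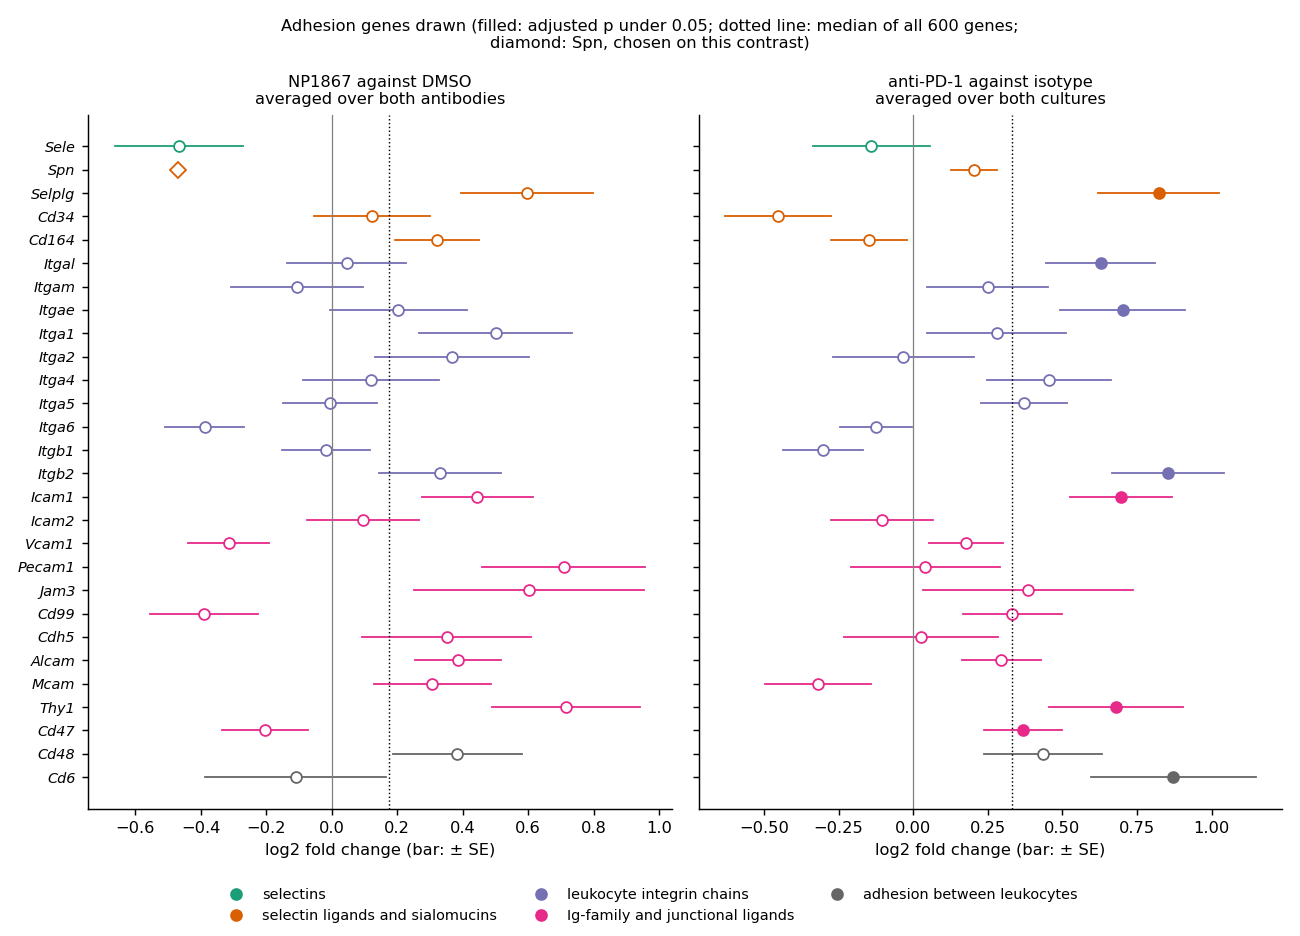
Log2 fold changes ± SE (horizontal axis) of 28 of the adhesion genes tested, coloured by role, for NP1867 against DMSO (left) and anti-PD-1 against isotype (right), each averaged over the other factor; filled points had a limma adjusted p under 0.05 and the dotted line is the median of all 600 genes. No filled point stands in the left panel, where Spn is drawn as a diamond at -0.47, and 8 stand right of 0 in the right panel.

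Some cytokines known to induce vessel wall adhesion molecules rose as well. Of the 9 listed 5 were tested, and in NP1867 tumours, where 12% of all 600 genes were called higher, 3 rose under anti-PD-1: Ltb, a subunit of the lymphotoxin heterotrimer (1.29, SE 0.29, limma adjusted p = 0.0124), Ifng, interferon gamma (1.21, SE 0.39, adjusted p = 0.0443), and Tnf (0.80, SE 0.26, adjusted p = 0.0443). Ifng averaged 5.05 ± 0.56 in NP1867 anti-PD-1 and 3.83 ± 0.61 in NP1867 isotype tumours (SD, n = 6 each), at counts of 8 to 63. Against the same 12%, 5 of 9 T cell markers rose and 0 fell, among them Cd3d (1.26, limma adjusted p = 0.0147), Cd8a (1.39, adjusted p = 0.0136) and Cd3e (1.10, adjusted p = 0.0425). Markers of some other cells rose too. Of mast cells 2 of 4 did (Tpsab1 1.44, limma adjusted p = 0.0136, and Cma1 1.11, adjusted p = 0.0470). Of neutrophils 1 of 3 did (Csf3r 1.32, adjusted p = 0.0110) and of dendritic cells 1 of 2 (Xcr1 1.08, adjusted p = 0.0257). Xcr1 averaged 4.29 in NP1867 isotype tumours, at counts of 14 to 27, also under the filter. The 1 of 4 pan-leukocyte markers that rose was Itgb2, also counted among the integrin chains. Called were 0 of 10 macrophage and monocyte, 0 of 5 natural killer cell and 0 of 2 B cell markers. The same held for 0 of 7 endothelial, 0 of 4 fibroblast, 0 of 1 platelet and 0 of 2 carcinoma markers. Positive changes were seen in 9 of the 10 macrophage and monocyte, 5 of the 5 natural killer cell and 2 of the 2 B cell markers. Of all 600 genes 462 were positive. Averaged over both cultures 2 of the 10, 2 of the 5 and 0 of the 2 were called higher, against 27% of all genes. The part of these cells in the changes of the adhesion genes was not tested. In DMSO tumours all 9 T cell markers and all 5 cytokines tested had positive changes under anti-PD-1, and 0 were called. There 438 of all 600 genes were positive. Averaged over both cultures 6 of the 9 T cell markers and 3 of the 5 cytokines rose, against 27% of all genes. For the difference between the responses of the 2 cultures 0 genes of either list were called. The summed level of the 12 T cell markers in the table ran from 9.52 to 10.40 in NP1867 anti-PD-1 and from 8.25 to 9.75 in NP1867 isotype tumours. Ptprc changed by 0.54 (SE 0.28, limma adjusted p = 0.159). With Ptprc as a covariate 0 of the 29 adhesion genes, Spn included, and 16 of all 599 genes in that fit were called in NP1867 tumours, and 4 of the 29 averaged over both cultures. Without NP1867 anti-PD-1 tumour 78 or 45 the count of adhesion genes called in NP1867 tumours, Spn included, was 0, and without NP1867 isotype tumour 47 it was 11. Without the 4 DMSO tumours of fewer than 200000 counts it was 11, and 15 averaged over both cultures.

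Across the 24 tumours, after the 4 group means were removed, 1 pair of the 5 genes passed on the deposited scale and another after centring. Selplg and Icam1 varied together (Pearson r = 0.65, Spearman rho = 0.64, 24 tumours; permutation p = 0.00070 and 0.00149, adjusted over the 10 pairs 0.0070 and 0.0149), and r was 0.56 without the 2 tumours farthest from the median of Selplg. After centring each tumour on its median r was 0.36 (permutation p adjusted 0.250). The deposited residuals of Selplg and Icam1 each followed the tumour's own median, with r = 0.74 and 0.58. A level shared by the genes of a tumour can thus enter the r of this pair. For Spn and Vcam1 r was 0.54 and rho 0.47 (permutation p = 0.0160 and 0.0342, adjusted 0.0798 and 0.171), and after centring r was 0.81 and rho 0.69 (permutation p adjusted 0.0043 and 0.0177), or 0.63 without the 2 farthest tumours. Centring adds the same amount to both genes in a tumour, and the centred value of Spn followed the tumour's own median with r = -0.91, that of Vcam1 with r = -0.72. Within these 10 pairs no other passed on either scale. No batch is named in the labels, so no value within batches can be given.

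**Figure D4:**
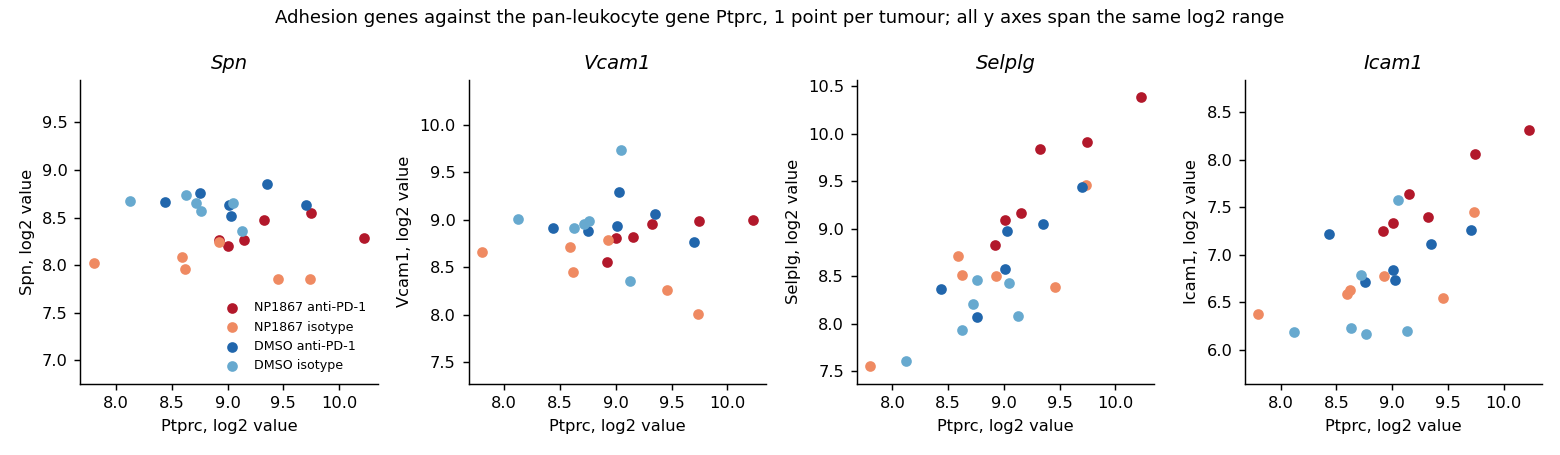
Log2 values of Spn, Vcam1, Selplg and Icam1 (vertical axes, each spanning the same log2 range) against that of Ptprc (horizontal axis) in 24 tumours, coloured by group. Selplg climbs with Ptprc (r of the residuals 0.85) and Spn stays flat (r = -0.17), with NP1867 tumours mostly below DMSO tumours.

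Selplg was higher in tumours with more of the leukocyte gene Ptprc, on both scales. On the deposited scale the residuals of Ptprc correlated with those of Selplg at r = 0.85 and of Icam1 at r = 0.60, but with those of Spn at r = -0.17 and of Vcam1 at r = -0.17 (24 tumours, given as a description). After centring the same r was 0.66 for Selplg, 0.16 for Icam1, -0.53 for Spn and -0.49 for Vcam1. Ranked by r of the centred residuals among 599 genes, those most like Spn were Map3k7 (r = 0.94), a kinase of cytokine receptor signalling, Sigirr (0.91), an inhibitory receptor of the interleukin 1 family, Tbk1 (0.90), a kinase of interferon induction, Igf1r (0.90), a growth factor receptor, and Smad2 (0.88), a mediator of TGF-beta signalling. Their r with Spn on the deposited scale was 0.62, 0.44, 0.44, 0.39 and 0.51. Ptprc ranked 533rd and the fibroblast collagen gene Col1a1 last (r = -0.89). On the deposited scale the r of Col1a1 with Spn was -0.36. The centred value of Spn followed the tumour's own median with r = -0.91, which can enter these ranks. All genes of a tumour share 1 scaling factor, which the centring replaces by another.

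Among the nearest genes of the other members, Map3k7 of Vcam1 was also one of Spn. Those of Selplg were H2-T23, a nonclassical MHC class I gene (r = 0.84), Tnfrsf14, the HVEM receptor (0.75), and Ncf4, a subunit of the phagocyte oxidase (0.74), and Ptprc ranked 8th. Those of Icam1 were Itgb2 (0.81), Cd86, a costimulatory ligand (0.75), and Itgal (0.74), so that both chains of its own receptor stood among its nearest 3. Those of Vcam1 were H2-M3, another nonclassical MHC class I gene (0.87), Map3k7 (0.84) and Ecsit, an adaptor of Toll-like receptor signalling (0.83). Those of Cd44 were Cr2 (0.86), Gata3 (0.86) and Ido1 (0.81), at its counts of 4 to 34.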

How the data were processed

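RNA from 3 sections of 10 um of each fixed tumour, 100 ng per hybridisation at 20 ng/uL where possible, was measured on the panel, per the labels' protocols. The authors deposited 1 table of log2 values for 750 genes in 24 tumours, and the normalisation behind it is not given in the sources used here. Dividing the linear values of a tumour by its own factor (0.522 to 5.46) returned whole counts for 100% of the deposited log2 values, at a tolerance of 0.05 counts. No 2 tumours held identical counts. A value of 3 counts corresponds to a log2 value of 0.65 to 4.03 depending on the tumour, and intervals from counts cover counting error only.

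A filter kept the 600 genes whose mean reached log2 20 and left 150 untested. The model was limma (3.58.1, R 4.3.3) with 1 coefficient per group over 24 tumours and a trended empirical Bayes prior (20 residual and 4.33 prior degrees of freedom). It gave 7 comparisons, each two-sided, with Benjamini-Hochberg adjustment across all 600 genes and a threshold of 0.05. Correlations used 100000 permutations within groups (scipy 1.17.1, numpy 2.4.6). The fit was tested on simulated data. Alternatives changed the scaling, filter, weights, covariates, count model and tumours included. Replicates are tumours, named by the number in their title.

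The 5 genes, the adhesion, cytokine and marker lists and the alternatives were chosen with earlier results of these data known. Named from the lists were the genes past the threshold, up to 4 a list by lowest p; per gene, those most like it (5 for Spn, 3 for each other); Ptprc, Pecam1 and markers beside a result. Exceptions are stated, and 1 gene of the lists is not reported here. Of the 750 symbols 736 matched RefSeq directly and 8 as older symbols, used for names only.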

Additional observations from a re-analysis of the deposited data

How the results depend on the processing

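All values are log2 differences and adjusted p-values are limma's. No paired analysis was possible because the groups compared share fewer than 2 numbers in their titles. The cause of each change below was not tested. Counts of adhesion genes called include Spn, whose call between NP1867 and DMSO is no test. Calls of Spn under anti-PD-1, in NP1867 tumours or averaged over both cultures, share the tumours that chose it and are no independent test. The same holds for its test in DMSO tumours. After centring on the median, the NP1867 difference of Spn was -0.76 under isotype, -0.58 under anti-PD-1 and -0.67 averaged, and its anti-PD-1 change -0.0050 in NP1867 tumours, -0.18 in DMSO tumours and -0.092 averaged. Centring also gave -0.12 for Vcam1 under anti-PD-1 averaged and r = -0.073 for Selplg with Vcam1. Quantile normalisation gave -0.79, -0.61 and -0.70 for Spn in the 3 NP1867 comparisons and 0.072, -0.11 and -0.019 in the 3 anti-PD-1 comparisons. It gave -0.014 for Icam1 between NP1867 and DMSO under isotype. Under anti-PD-1 it gave 0.55 (adjusted p = 0.0739) for Icam1 in NP1867 tumours and 0.34 (adjusted p = 0.0816) averaged, 0.0082 for Cd44 in NP1867 tumours and -0.029 for Vcam1 averaged. The planned limma-voom with TMM normalisation, in which Selplg missed the threshold in NP1867 tumours, is not tabulated, and scaling by library totals was chosen in its place after seeing the data. It gave Spn -0.62 under anti-PD-1 and -0.67 averaged between NP1867 and DMSO, anti-PD-1 changes of -0.061 in NP1867 tumours, -0.16 in DMSO tumours and -0.11 averaged, and a difference of responses of 0.0995. It gave Vcam1 -0.030 in NP1867 tumours and -0.13 averaged, and called 2 adhesion genes between NP1867 and DMSO averaged. Centring, quantile normalisation, voom and a fit of only the groups compared each called 0 adhesion genes between NP1867 and DMSO under isotype. In NP1867 tumours under anti-PD-1, Spn stood at 0.34 with only the groups compared (adjusted p = 0.0885) or no filter (adjusted p = 0.0593), and Selplg at 1.02 with only the groups compared (adjusted p = 0.0508). Averaged, Spn passed at 0.20 with a filter of 50 (adjusted p = 0.0396) and with the scaling factor as covariate (adjusted p = 0.0405). Array weights gave Selplg 0.47, Icam1 0.46 and Vcam1 -0.28 between NP1867 and DMSO averaged, Selplg 0.84, Icam1 0.65 and Vcam1 0.091 under anti-PD-1 in DMSO tumours, and Spn 0.15 and Vcam1 0.19 averaged. They called 8 adhesion genes between NP1867 and DMSO averaged, and under anti-PD-1 13 in NP1867 tumours, 11 in DMSO tumours and 21 averaged. Over all genes they called 13 and 70 between NP1867 and DMSO under isotype and averaged, and 267, 273 and 404 in the 3 anti-PD-1 comparisons. With Ptprc as covariate, Spn (0.36), Selplg (0.55) and Icam1 (0.67) missed the threshold in NP1867 tumours, Vcam1 was 0.014 in DMSO tumours, and 0 adhesion genes were called in NP1867 tumours and 4 averaged, of 16 and 52 genes. With the scaling factor as covariate 2 adhesion genes were called between NP1867 and DMSO averaged and 10 under anti-PD-1 in NP1867 tumours. Without tumours under 200000 counts the first count was 2, the second 11, the averaged anti-PD-1 count 15, the counts over all genes 139 and 318, and Vcam1 was 0.050 in DMSO tumours. Leaving out each tumour in turn gave, between NP1867 and DMSO averaged, 0.50 to 0.69 for Selplg, 0.37 to 0.55 for Icam1 and 1 to 3 adhesion genes called (3 without DMSO isotype tumour 23). Under anti-PD-1 in NP1867 tumours it gave 0.29 to 0.38 for Spn (passing in 8 of 24), 0.82 to 1.20 for Selplg (20 of 24), 0.81 to 1.08 for Icam1 (22 of 24), 0 to 11 adhesion genes and 14 to 198 of all genes. Icam1 missed the threshold without NP1867 anti-PD-1 tumour 78 or 45, and Selplg without those, anti-PD-1 tumour 30 or isotype tumour 57. The adhesion count was 9 without DMSO isotype tumour 23, 1 without NP1867 isotype tumour 57 and 2 when anti-PD-1 tumour 30 of NP1867 was left out. In DMSO tumours Vcam1 ran from -0.14 to 0.13, the highest without DMSO isotype tumour 23. Averaged over both cultures Spn ran from 0.18 to 0.23 (passing in 4 of 24), Vcam1 from 0.11 to 0.25 (1 of 24), the adhesion genes called from 6 to 15 and all genes called from 91 to 308. The few counts of Cd44 and of the 4 shallow tumours limit what their values can show.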
